A study of Mus musculus with 6 samples.

Results

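The endoplasmic reticulum (ER) folding genes *Hspa5*, *Hsp90b1*, *Calr*, *Canx*, *Pdia3*, *Pdia4*, *Pdia6*, *Dnajb9*, *Sdf2l1* and *Herpud1* were followed in hematopoietic stem and progenitor cells with and without deletion of *Myh9*, the gene of non-muscle myosin heavy chain IIA. These 10 of the 54532 genes in the expression table were chosen by name as chaperones, disulfide isomerases and degradation factors of the ER that the unfolded protein response controls. LSK cells, the bone marrow (BM) fraction without lineage markers and with Sca1 and c-Kit, had been sorted from C57BL/6 mice, 100000 cells for each of 3 control and 3 *Myh9*-deficient sets, and each set gave 1 RNA-seq library. Control mice were littermates of genotype *Myh9fl/fl;no cre*, and *Myh9*-deficient mice were *Myh9fl/fl;Mx1-cre*, in which Cre is driven by the interferon-responsive *Mx1* promoter and is not limited to blood cells. Both groups carried the floxed allele, in which loxP sites flank exon 1, and both received the interferon inducer poly I:C at 5 mg/kg, in 2 doses by the sample descriptions and 3 by the study's methods. Cells were taken 4 days after the first injection. Mice were genotyped at 4 to 5 weeks of age by the sample descriptions and injected at 5 to 6 weeks by the methods. The number of mice behind a set is not stated, so p-values measure the spread between these libraries.

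Proteins that enter the ER are bound by the HSP70 protein BiP and the HSP90 protein GRP94, pass through the calnexin and calreticulin cycle if they carry N-glycans, and receive disulfide bonds from protein disulfide isomerases. When unfolded proteins accumulate, the sensors IRE1, PERK and ATF6 start the unfolded protein response (UPR), in which spliced XBP1 and cleaved ATF6 raise transcription of chaperone genes while PERK slows translation and favours ATF4. Granulocyte precursors, plasma cells and other cells that make much secreted or granule protein are known for high levels of these genes, and hematopoietic stem cells for a low rate of protein synthesis.

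Libraries held 17571544 to 19894562 reads on genes, recovered from the deposited FPKM values (fragments for a gene, divided by its length and by the size of the library). The gate genes *Kit* (23.4 to 24.3 FPKM in control and 21.2 to 21.8 in *Myh9*-deficient LSKs) and *Ly6a*, which encodes Sca1 (93.2 to 96.7 and 85.4 to 92.3 FPKM), were present in all 6 libraries. *Myh9* itself measured 23.0, 22.6 and 22.0 FPKM in control and 18.4, 19.96 and 17.7 FPKM in *Myh9*-deficient libraries. Its log2 fold change was -0.26 (adjusted p = 0.0064, limma), and -0.099 (adjusted p = 0.106) once GC and length trends were removed. The value sums all exons, so it does not measure the flanked exon alone.

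The promoters of these genes are printed first because many genes of this kind are known to share ER stress elements there. The ER stress element (ERSE), bound by NF-Y at its first piece and by ATF6 or XBP1 at its second, was searched as CCAAT, 9 bases of any letter and CCACG. ERSE-II was searched as ATTGG, 1 base and CCACG, and the UPR element (UPRE) as TGACGTGG, whose last letters overlap the reverse of CCACG. Gene positions given with identifiers below are those of the expression table (mm10). Both strands were read in RefSeq windows (GRCm38.p6) from 250 bases before to 50 bases after each annotated start, and all 10 genes had such a window. The stretches below run 5′ to 3′ along the gene's strand, with positions counted from the annotated start, with the pieces of each ERSE or ERSE-II in capitals; CGTGG and ATTGG in that order are an ERSE read on the opposite strand. Each shows how an element lies in the promoter of a gene whose level is given further on.
Hspa5 (chr2:34772020-34772048, plus strand, positions -70 to -42, inside the first exon of the longer gene model of the file): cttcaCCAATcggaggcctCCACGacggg
Hsp90b1 (chr10:86705513-86705676, minus strand, positions -232 to -69): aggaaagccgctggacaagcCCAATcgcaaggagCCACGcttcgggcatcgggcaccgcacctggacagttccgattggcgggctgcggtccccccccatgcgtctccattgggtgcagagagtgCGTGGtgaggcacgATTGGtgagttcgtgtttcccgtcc
Calr (chr8:84847055-84847113, minus strand, positions -182 to -124): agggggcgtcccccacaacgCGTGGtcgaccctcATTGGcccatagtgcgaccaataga
Canx (chr11:50325780-50325838, minus strand, positions -165 to -107): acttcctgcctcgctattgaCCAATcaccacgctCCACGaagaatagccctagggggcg
Pdia6 (chr12:17266471-17266529, plus strand, positions -118 to -60): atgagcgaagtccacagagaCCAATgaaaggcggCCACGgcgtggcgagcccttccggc
Herpud1 (chr8:94386357-94386407, plus strand, positions -72 to -22): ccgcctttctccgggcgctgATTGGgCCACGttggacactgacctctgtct

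An ERSE stood in 5 of the 10 windows (*Hspa5*, *Hsp90b1*, *Calr*, *Canx* and *Pdia6*), against 39 of all 32851 windows (0.119%). *Hsp90b1* had 2 of them, 1 on each strand. In the other 4 genes the element lay on the gene's own strand in *Hspa5*, *Canx* and *Pdia6* and on the opposite strand in *Calr*. *Herpud1* held an ERSE-II, which 12 of all windows held (0.0365%). None of the 10 windows held the UPRE, which 0.676% of all windows held. The second piece CCACG alone was present in 9 of the 10 windows, every gene but *Pdia3*, against 32.8% of all windows, and CCAAT in all 10 against 37.4%. *Pdia3*, *Pdia4*, *Dnajb9* and *Sdf2l1* had CCAAT with neither full element in these windows. The *Dnajb9* window (44210019 to 44210318, minus strand) lay wholly inside the gene of the expression table, which starts at 44210326. Bases before that start were not searched. The *Pdia4* window (47813463 to 47813762, minus strand) ended before the table's start of this gene at 47813430. For these genes a missing element holds for the RefSeq window only. A match describes letters, not binding.

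**Figure D1:**
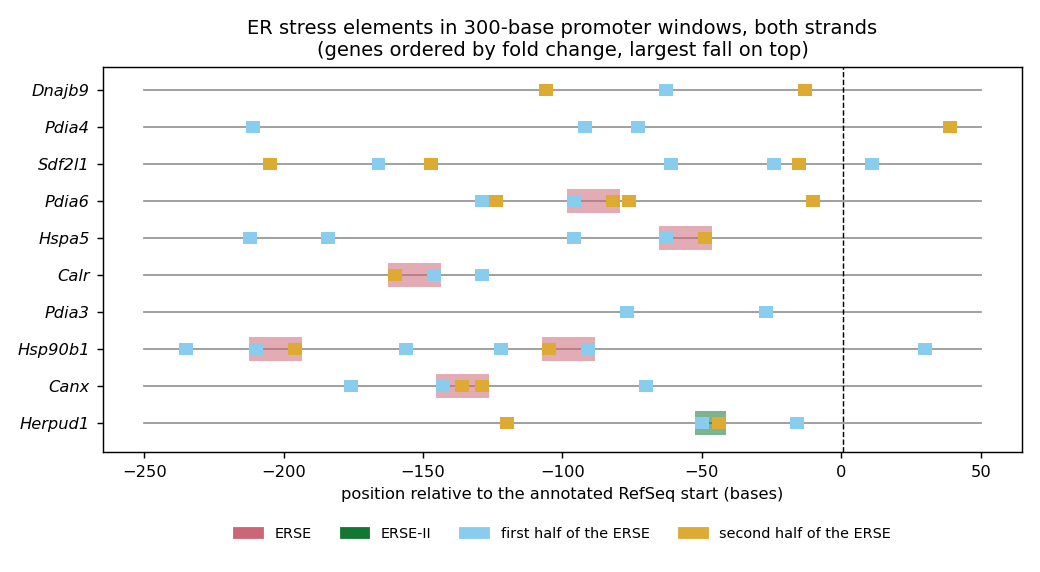
Exact matches to ER stress elements on either strand, by position in bases relative to the annotated RefSeq start (dashed line), in the promoter windows of the 10 ER folding genes, ordered from the largest to the smallest fall in Myh9-deficient LSKs. Wide blocks are full elements (ERSE in 5 genes, ERSE-II in Herpud1) and narrow blocks the single pieces; Dnajb9, Pdia4 and Sdf2l1, at the top, show pieces only.

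To ask whether the ER folding genes differ between LSKs of *Myh9fl/fl;Mx1-cre* and control mice, log2(FPKM + 1) values were compared with limma over 11552 genes that averaged 1 FPKM or more, with p-values adjusted over all of them. Of the 10 genes, 9 were lower in *Myh9*-deficient LSKs, *Herpud1* did not pass the test and none was higher. Among all genes tested, 20.6% were called lower and 19.9% higher. Every *Myh9*-deficient library lay below every control library for all 10 genes, where 28.5% of genes tested had that order. The median log2 fold change of the 10 genes was -0.34 against -0.0096 for all genes tested. Among the 4894 genes that averaged 10 FPKM or more, as all 10 did, 23.0% were called lower and 30.6% higher, with a median of 0.028. No gene of the 10 passed a 2-fold change, the size the study required. On the log2(FPKM + 1) scale used here, 0.701% of genes tested passed it downwards and 1.43% upwards with an unadjusted p under 0.05 (limma). In bulk libraries like these, fewer cells of a type and less RNA per cell cannot be told apart.

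**Figure D2:**
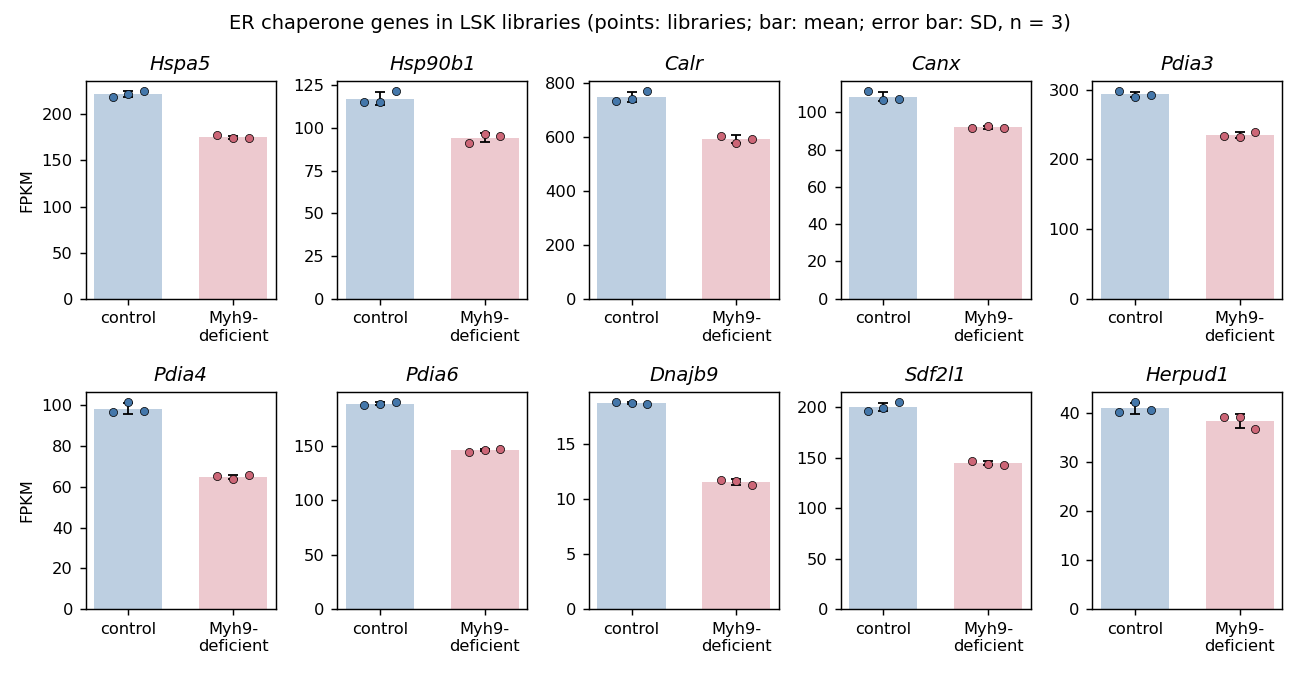
FPKM of the 10 ER folding genes, 1 panel a gene with its own axis from 0, in control and Myh9-deficient LSKs; points are single libraries, bars the mean and error bars the SD of 3 libraries. In each panel the 3 Myh9-deficient points lie below the 3 control points, by the least in Herpud1 (41.1 to 38.4 FPKM in the mean).

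*Hspa5* (ENSMUSG00000026864, chromosome 2 from 34771970 to 34777547), which encodes BiP, the HSP70 chaperone that also holds the UPR sensors inactive, measured 219, 222 and 225 FPKM in control libraries and 177, 174 and 174 FPKM in *Myh9*-deficient libraries. The mean fell by 21.0% (log2 fold change -0.34 ± 0.022 SE, adjusted p = 8.7e-05, limma), and the groups were far apart against a spread of about 1% within each (coefficients of variation 1.33% and 0.93%). *Hsp90b1* (ENSMUSG00000020048, chromosome 10 from 86690209 to 86705509), the gene of GRP94, the ER member of the HSP90 family and a chaperone of integrins and Toll-like receptors, gave 115, 115 and 121 FPKM in control and 91.5, 96.5 and 95.3 FPKM in *Myh9*-deficient LSKs. It was lower by 19.4% in the mean (log2 fold change -0.31 ± 0.034 SE, adjusted p = 0.00073). *Hsp90b1* lies over an antisense gene, *1810014B01Rik*, listed at 6.41 to 7.87 FPKM, and over *Gm15344* on its own strand at 1.79 to 3.32 FPKM. The library kit does not mark strand, so reads of these genes could be exchanged with *Hsp90b1*, at a level far below its own.

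Of the lectin chaperone cycle, *Calr* (ENSMUSG00000003814, chromosome 8 from 84841850 to 84846934) was the most abundant of the 10 genes. Calreticulin, its soluble product, binds monoglucosylated glycoproteins and calcium. Control libraries held 733, 743 and 770 FPKM of *Calr* and *Myh9*-deficient libraries 606, 579 and 593 FPKM. The mean fell by 20.8% (log2 fold change -0.34 ± 0.029 SE, adjusted p = 0.00027). *Canx* (ENSMUSG00000020368, chromosome 11 from 50293961 to 50325673), the gene of the membrane-bound lectin calnexin, stood at 111, 107 and 107 FPKM in control and 91.4, 92.8 and 91.5 FPKM in *Myh9*-deficient LSKs. Its fall of 15.2% was the smallest among the 9 genes called (log2 fold change -0.24 ± 0.026 SE, adjusted p = 0.00073). *Pdia3* (ENSMUSG00000027248, chromosome 2 from 121413775 to 121438687) encodes ERp57, the disulfide isomerase that works with both lectins, and had 298, 290 and 293 FPKM in control against 233, 233 and 240 FPKM in *Myh9*-deficient LSKs. It fell by 19.8% (log2 fold change -0.32 ± 0.024 SE, adjusted p = 0.00016), close to *Calr*, and the ratio of *Pdia3* to *Calr* overlapped between the groups.

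The disulfide isomerases that associate with BiP moved further apart from each other. *Pdia4* (ENSMUSG00000025823, chromosome 6 from 47796141 to 47813430), which encodes ERp72, was at 96.4, 101 and 96.7 FPKM in control and 65.0, 63.5 and 65.5 FPKM in *Myh9*-deficient libraries. The mean fell by 34.1%, the second fall in size (log2 fold change -0.59 ± 0.030 SE, adjusted p = 2.9e-05). *Pdia6* (ENSMUSG00000020571, chromosome 12 from 17266545 to 17284770), the gene of P5, which also acts on the sensors IRE1 and PERK, had 187, 188 and 190 FPKM in control and 145, 146 and 147 FPKM in *Myh9*-deficient LSKs. It fell by 22.6% (log2 fold change -0.37 ± 0.021 SE, adjusted p = 5.3e-05). The ratio of *Pdia4* to *Pdia6* was 0.521 in control and 0.444 in *Myh9*-deficient LSKs in the mean and did not overlap between the groups.

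Among BiP cochaperones, *Dnajb9* (ENSMUSG00000014905, chromosome 12 from 44205559 to 44210326) showed the largest fall of the 10 genes. Its product ERdj4 is a J-domain protein that recruits BiP to IRE1 and to proteins bound for degradation, and it is a classic target of spliced XBP1. Levels were 18.8, 18.7 and 18.6 FPKM in control and 11.7, 11.7 and 11.2 FPKM in *Myh9*-deficient LSKs, the lowest of the 10 genes in both groups, from 533 to 952 reads a library. The mean fell by 38.3% (log2 fold change -0.65 ± 0.032 SE, adjusted p = 2.9e-05). *Sdf2l1* (ENSMUSG00000022769, chromosome 16 from 17130138 to 17132383), a small partner of BiP and its J-domain proteins, fell from 197, 199 and 205 FPKM to 147, 144 and 143 FPKM. That is 27.8% in the mean (log2 fold change -0.47 ± 0.026 SE, adjusted p = 4.5e-05). The ratio of *Sdf2l1* to its paralog *Sdf2*, at 42.1 to 45.5 FPKM in all libraries, was 4.56 in control and 3.27 in *Myh9*-deficient LSKs, without overlap.

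*Herpud1* (ENSMUSG00000031770, chromosome 8 from 94386438 to 94395377), which encodes HERP, a membrane scaffold of ER-associated degradation, stood apart. It measured 40.2, 42.3 and 40.7 FPKM in control and 39.2, 39.3 and 36.8 FPKM in *Myh9*-deficient LSKs. The highest *Myh9*-deficient library came within about 1 FPKM of the lowest control library. The mean was 6.5% lower (log2 fold change -0.09, 95% interval -0.18 to -0.0054, adjusted p = 0.086, limma). It passed in 2 of 18 alternative fits, with quantile normalization (-0.13, adjusted p = 0.038) and after removal of GC and length trends (-0.13, adjusted p = 0.031). The 9 other genes passed in all 18, with adjusted p of at most 0.0086.

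**Figure D3:**
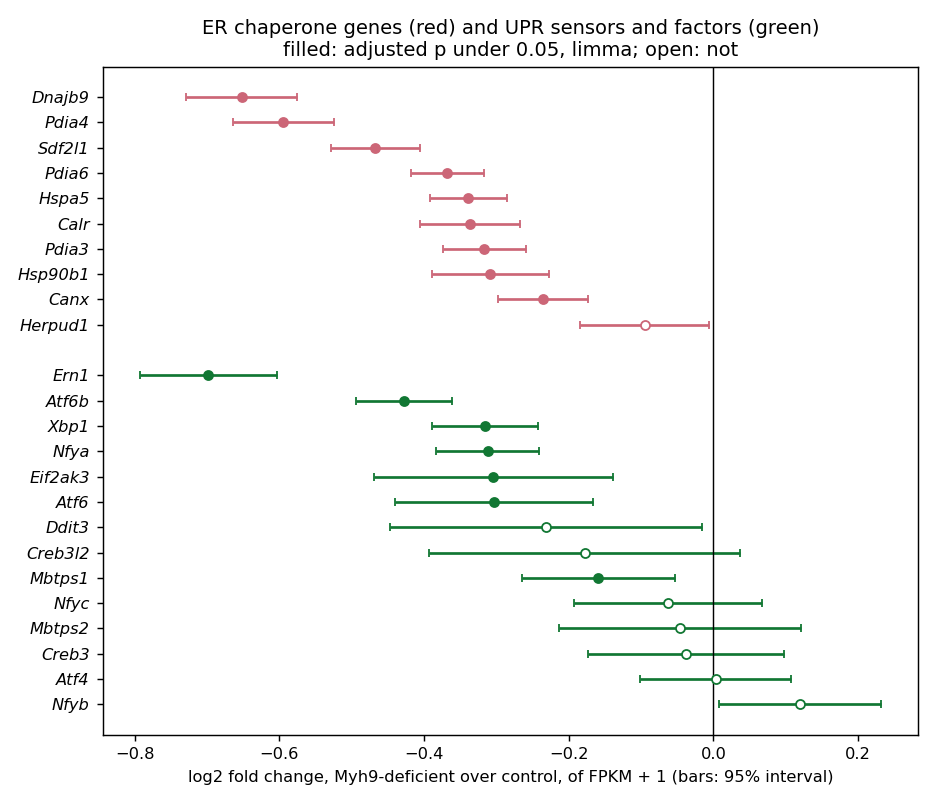
Log2 fold changes of FPKM + 1, Myh9-deficient over control, with 95% intervals from limma, for the 10 ER folding genes (red) and 14 UPR sensors and factors (green); filled points passed an adjusted p of 0.05. The red points run from -0.65 (Dnajb9) to -0.09 (Herpud1), and Ern1 at -0.70 heads the green ones.

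Together the 10 genes summed to 2014 to 2067 FPKM in control and 1580 to 1606 FPKM in *Myh9*-deficient libraries, a fall of 21.7% in the mean. With 3 libraries a group, the exact permutation test (two-sided) gives p = 0.1, the smallest it can give. The sum fell by 21.0% to 22.2% whichever gene was left out, so the fall did not rest on *Calr*, which made up 36.8% of the sum in control. As a share of all FPKM in a library, the 10 genes took 0.484% in control and 0.373% in *Myh9*-deficient LSKs.

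The fall was not even over the 10 genes. Within each library's 10-gene sum, the share of *Herpud1* went from 2.02% to 2.41% and that of *Canx* from 5.33% to 5.77%. *Pdia4* went from 4.82% to 4.05%, *Sdf2l1* from 9.83% to 9.06% and *Dnajb9* from 0.919% to 0.724%. None of these 5 shares overlapped between the groups (exact permutation p = 0.1 each, the smallest possible with 3 libraries against 3), while those of *Hspa5*, *Hsp90b1*, *Calr*, *Pdia3* and *Pdia6* had exact p of 0.2 to 0.5. Of the 45 ratios between 2 of the genes, 34 did not overlap between the groups, among them all 9 with *Herpud1*. The 45 ratios come from the same 10 genes and are not independent. How often shares or ratios of other genes overlap was not computed. Among single genes tested, 28.5% did not overlap downwards and 25.5% upwards, so these counts do not set the 10 genes apart. The 11 ratios that overlapped were all between genes of the group *Hspa5*, *Hsp90b1*, *Calr*, *Canx*, *Pdia3* and *Pdia6*, in which some other pairs did not overlap. The means of these 6 genes fell by 15.2% to 22.6%, those of *Sdf2l1*, *Pdia4* and *Dnajb9* by more.

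The order of levels per gene length was nearly the same in both groups. In control it ran *Calr*, *Pdia3*, *Hspa5*, *Sdf2l1*, *Pdia6*, *Hsp90b1*, *Canx*, *Pdia4*, *Herpud1* and *Dnajb9*, and no neighbours in this order overlapped. In *Myh9*-deficient LSKs *Pdia6* and *Sdf2l1* changed places with overlapping libraries (145 to 147 and 143 to 147 FPKM), and *Hsp90b1* and *Canx* overlapped as well. The mean levels of the 10 genes lay between percentiles 68.3 and 99.1 of the genes tested.

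The UPR sensors and factors, whose action on the 10 genes was not tested here, were partly lower. Of 14 tested, 7 were lower and none higher, with a median log2 fold change of -0.20. *Ern1*, the gene of IRE1, had 9.28, 9.29 and 8.82 FPKM in control and 5.25, 5.29 and 5.2 FPKM after deletion. This fall (log2 fold change -0.70, adjusted p = 5.1e-05, limma) was near those of *Dnajb9* and *Pdia4*. *Xbp1*, whose RNA IRE1 splices, fell from 63.5, 63.3 and 62.9 to 52.5, 49.8 and 49.5 FPKM (log2 fold change -0.32, adjusted p = 0.00043). Gene-level values do not separate spliced from unspliced *Xbp1*. *Atf6b*, at 56.8 to 58.2 FPKM in control and 41.6 to 43.4 FPKM after deletion, fell (log2 fold change -0.43, adjusted p = 8.2e-05) and *Atf6* with a log2 fold change of -0.30 (adjusted p = 0.0066). *Nfya*, a subunit of the CCAAT-binding NF-Y, also fell (-0.31, adjusted p = 0.00041), while the other subunits *Nfyb* (0.12, adjusted p = 0.086) and *Nfyc* (-0.063, adjusted p = 0.397) did not pass. *Eif2ak3*, the gene of PERK, was at 3.23 to 3.78 FPKM in control and 2.64 to 2.86 FPKM in *Myh9*-deficient LSKs (-0.30, adjusted p = 0.014), and its adjusted p was 0.0501 without control replicate 1. *Mbtps1*, which encodes the protease that cleaves ATF6 first, passed (-0.16, adjusted p = 0.028) but in only 10 of 18 alternatives, and had -0.039 (adjusted p = 0.524) with GC and length trends removed. It did not pass when any control library or *Myh9*-deficient replicate 1 or 2 was left out (adjusted p of 0.062 to 0.086).

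*Atf4*, the factor downstream of PERK, had 114, 111 and 118 FPKM in control and 121, 109 and 114 FPKM in *Myh9*-deficient LSKs, and the groups overlapped (log2 fold change 0.0029, adjusted p = 0.966, and -0.045 to 0.037 over 18 alternatives). *Ddit3*, the gene of CHOP, measured 13.0, 14.4 and 13.3 FPKM in control and 13.3, 10.4 and 10.8 FPKM in *Myh9*-deficient LSKs, also with overlap. It did not pass (-0.23, adjusted p = 0.084, limma), except in 2 of 18 alternatives. *Creb3*, *Creb3l2* and *Mbtps2* did not pass either (-0.038, -0.18 and -0.046). Of 18 tested genes of the PERK and ATF4 branch, 11 were higher and 3 lower, with a median of 0.16. The highest rises were in *Ddit4*, an inhibitor of mTORC1 (0.95, adjusted p = 0.00011), *Asns*, asparagine synthetase (0.92, adjusted p = 1.3e-05), and *Nupr1* (0.53, adjusted p = 0.020). The falls were in *Atf3* (-2.37, adjusted p = 5.0e-06), *Ppp1r15a*, the gene of the GADD34 phosphatase subunit (-0.78, adjusted p = 3.8e-05), and *Cebpb* (-0.76, adjusted p = 0.0073). *Atf3* and *Ppp1r15a* moved in the direction of the 10 ER folding genes, and the amino acid gene *Asns* went the other way.

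**Figure D4:**
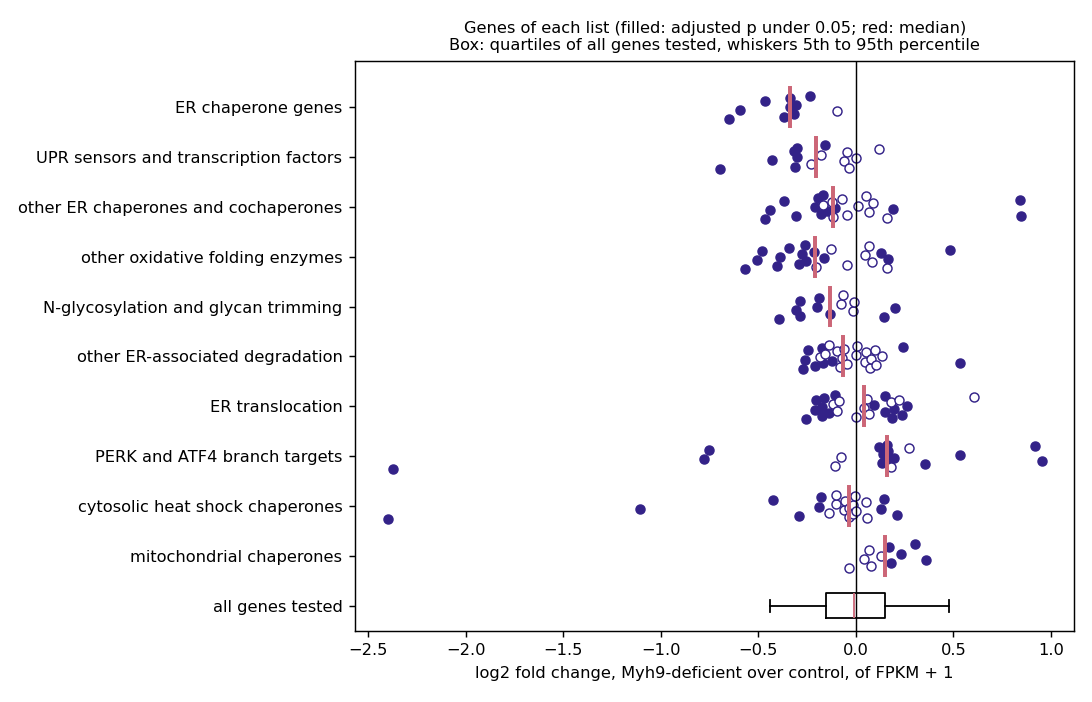
Log2 fold changes of FPKM + 1, Myh9-deficient over control, for every tested gene of 10 lists (points; filled where adjusted p was under 0.05), with each list's median in red, above the quartiles and the 5th to 95th percentile of all 11552 genes tested. The median of the 10 ER chaperone genes (-0.34) lies furthest left, and those of PERK and ATF4 targets (0.16) and mitochondrial chaperones (0.15) furthest right.

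Other ER folding genes, with the sensors and factors above counted in, were 51 lower and 17 higher of 123 tested (41.5% and 13.8%), with a median of -0.10. The count of rises was less stable than that of falls. It was 7 without control replicate 1, 7 without control replicate 2, 11 without control replicate 3, and 9 without *Myh9*-deficient replicate 1 or 3, while falls numbered 42 to 47 over the 6 fits that leave out 1 library. Over all 18 alternatives, 7 to 22 rises and 42 to 56 falls were called. Among 23 other chaperones and cochaperones, 10 were lower and 3 higher, with a median of -0.12. The largest falls were in *Uggt1* (-0.46), the sensor that returns misfolded glycoproteins to calnexin and calreticulin, *Cnpy3* (-0.44), a cochaperone of GRP94 for Toll-like receptors, and *Hyou1* (-0.37), a nucleotide exchange factor of BiP. The rises were in *Fkbp11* (0.85) and *Mzb1* (0.84), both also counted among the plasma and B cell genes below, and *Sil1* (0.19), another exchange factor of BiP, which failed in 9 of 18 alternatives.

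Of 22 other oxidative folding enzymes, 12 were lower and 3 higher, with a median of -0.21. *Ero1lb*, which reoxidizes disulfide isomerases (-0.57), *Txndc16* (-0.51) and *Tmx4* (-0.48) fell the most on the log2(FPKM + 1) scale. *Ero1lb* (3.06 to 3.32 FPKM in control) and *Txndc16* (1.37 to 1.65 FPKM) were low genes, whose changes this scale understates. *P4hb*, the founding disulfide isomerase, named here after its values were seen, fell from 356, 370 and 363 to 272, 269 and 280 FPKM (-0.41, adjusted p = 8.3e-05). The rises were in *Gpx7* (0.48, at 3.04 to 6.00 FPKM over all libraries), *Txndc15* (0.17) and *Qsox1* (0.13). Between 0 and 4 members were called higher when 1 library was left out. In N-glycosylation and glycan trimming, 7 of 13 were lower and 2 higher (median -0.13). Here *Magt1* (-0.39), *Ganab*, the glucosidase II subunit that feeds the calnexin cycle (-0.31), and *Ddost* (-0.29) led the falls, and *Tusc3* (0.20) and *Dad1* (0.15) were the rises, and neither passed without control replicate 1 or 2 or *Myh9*-deficient replicate 1 or 3.

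ER-associated degradation, the pathway of *Herpud1*, had a smaller median change than the chaperone, oxidative folding and N-glycosylation lists above. Differences between lists were not tested. Of 26 other members, 7 were lower and 2 higher, with a median of -0.064, and the shares (26.9% and 7.7%) compare with 20.6% and 19.9% of all genes tested. *Os9* (-0.27), the gene of a lectin that reads trimmed mannose on misfolded proteins, and *Edem1* (-0.26) and *Edem2* (-0.24), of the EDEM family that acts in this mannose trimming, fell, and *Derl3* (0.54) and *Aup1* (0.24) rose. Of 25 translocation genes, 8 were lower and 7 higher, with a median of 0.043. *Spcs3* (-0.26), *Ssr3* (-0.21) and *Srp68* (-0.20) led the falls and *Srp19* (0.26), *Ssr4* (0.24) and *Sec61a2* (0.20) the rises, of which 2 to 5 were called when 1 library was left out. Both subunits named, *Ssr3* and *Ssr4*, belong to the translocon-associated protein complex.

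Chaperones of other compartments were measured in the same libraries. Of 23 cytosolic heat shock genes, 6 were lower and 3 higher, with a median of -0.037. The falls were led by *Hspa1b* (-2.40) and *Hspa1a* (-1.11), near-identical copies whose reads may be shared, and *Dnajb1* (-0.42), and the rises were in *Dnaja1* (0.21), *Ahsa1* (0.14) and *Dnaja2* (0.13). Of 10 mitochondrial chaperones and proteases, 5 were higher and none lower, with a median of 0.15, led by *Clpp* (0.36), *Hspe1* (0.30) and *Hspd1* (0.23). Ratios taken within a library do not depend on library size. The ratio of *Hspa5* to its mitochondrial paralog *Hspa9* was 1.87, 1.91 and 1.89 in control and 1.35, 1.27 and 1.32 in *Myh9*-deficient LSKs. *Hsp90b1* to *Hsp90ab1*, the cytosolic form, went from 0.0943 to 0.0767, and *Hsp90b1* to *Trap1*, the mitochondrial form, from 1.26 to 1.04. These 3 ratios did not overlap between the groups (exact permutation p = 0.1 each). *Hspa5* to *Hspa8*, the constitutive cytosolic HSP70, was 0.372 in control and 0.359 in *Myh9*-deficient LSKs with overlap (exact p = 0.2), and *Hspa8* was itself lower (594 to 601 FPKM in control and 474 to 496 FPKM with deletion).

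Markers of cell types changed in both directions in these libraries. Of 12 neutrophil lineage genes, 10 were lower (median of the 12 on the log2 scale -0.37), and their sum was 10697 to 10766 FPKM in control and 6103 to 6213 FPKM after deletion, with *Mpo*, *Elane* and *Ctsg*, enzymes of primary granules, at the highest mean levels over all 6 libraries. Of 9 monocyte and macrophage genes, 6 were lower and 3 higher (sum 432 to 471 and 174 to 190 FPKM). All 12 erythroid genes tested were higher (578 to 584 and 1030 to 1072 FPKM), as were all 5 megakaryocyte genes tested (68.5 to 73.7 and 143 to 150 FPKM, *Gp1bb* at 0 throughout). Of 10 plasma and B cell genes, 7 were higher and 2, *Ighm* and *Sdc1*, lower (622 to 633 and 1055 to 1163 FPKM, mostly *Igkc*). *Prdm1*, *Irf4*, *Tnfrsf17*, *Ms4a1* and *Eaf2* stayed under 1 FPKM in every library. Mast cell and basophil genes had 5 higher of 7 (108 to 120 and 166 to 175 FPKM). T and NK cell genes had 4 higher and 1 lower of 5 (367 to 380 and 343 to 347 FPKM, mostly *Nkg7*), with *Cd3e* at 0 in control. Plasmacytoid dendritic cell genes had 1 lower of 5 (271 to 281 and 246 to 252 FPKM), with *Siglech* and *Ccr9* under 1 FPKM. LSK gate genes had 3 higher and 1 lower, *Kit*, of 8 (223 to 228 and 229 to 238 FPKM). The part of these cell types in the lower ER folding genes was not tested.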

How the data were processed

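LSK cells from 3 control and 3 *Myh9*-deficient sets were sequenced from TruSeq libraries without strand. Per the labels, reads were aligned with HISAT2 2.0.5 to mm10, and the counting program and annotation are not given in the sources used here. The authors deposited FPKM values with gene lengths for 54532 genes, 54409 of them with identifiers in GENCODE M21. Multiplied by gene length, 100% of values came out as whole reads of a constant size (tolerance 0.01 read), so reads could be recovered, 533 to 42546 for the 10 genes. Precision from read numbers covers counting error only. Their size showed that the deposited FPKM already carry median-of-ratios size factors (implied library sizes 99.0% to 101% of the reads on genes).

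The 11552 genes that averaged 1 FPKM or more were tested as log2(FPKM + 1), a scale that understates changes of low genes, with limma 3.58.1 in R 4.3.3 (eBayes with a trend, two-sided, Benjamini-Hochberg adjustment over all genes tested, calls at adjusted p under 0.05). The code was tested on simulated data. Sums and ratios were compared with exact permutation tests over libraries. The 10 genes, the gene lists and the marker lists were chosen with earlier results of these data known. Named genes are the 10, *Myh9*, the UPR sensors and factors, up to 3 called rises and 3 called falls of largest size per list, *Kit*, *Ly6a* and the most abundant markers. Any other gene was picked once its values were known. Some marker values are not reported here. Of 2 identifiers for *Ddit3*, the longer model was used. Replicate numbers did not pair the libraries. Promoter windows came from RefSeq (GRCm38.p6). Alternatives were another pseudocount, filters, scalings, moderations, voom on recovered reads, a replicate block, each library left out and, chosen after seeing the data, scaling by the sum of recovered reads and removal of GC and length trends. Other software was Python 3.11.15, pandas 2.3.3, numpy 2.4.6, scipy 1.17.1 and matplotlib 3.10.9.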

Additional observations from a re-analysis of the deposited data

How the results depend on the processing

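Over 18 alternatives, 9 of the 10 genes stayed lower, and *Herpud1* passed in 2. At the study's thresholds, more than 2-fold with an unadjusted p under 0.05, the count of lower genes among the 10 was 0, and among the other ER lists 0 were lower and 0 higher. The count of higher genes in the other ER lists, 17 as reported, was 10 with no filter on low values, 10 after rescaling to the same sum (TPM), 8 with no moderation of the variance, 18 after scaling by the sum of recovered reads, 22 with voom on these reads and 7 to 14 with 1 library left out. With each library left out in turn, lower genes numbered 9 of the 10 and 42 to 47 in the other ER lists. Of 1212 combinations of 68 named genes with an alternative, 1126 kept direction and call, 75 lost the call and 5 gained it. In the other 6, 5 for *Atf4* and 1 for *Mbtps2*, a value without a call changed sign and stayed without one, and no called value changed sign. Scaling by the median of ratios gave the reported values because the deposited FPKM already carry such factors. Same-numbered libraries did not deviate together (correlations -0.0046, -0.011 and -0.026), and no library pairing can be claimed: the replicate block gave 9 lower and 0 higher of the 10 genes, and 46 lower and 14 higher in the other ER lists. The reads behind *Dnajb9*, the least abundant of the 10, were 533 to 952 a library, and a p of 0.1 is the lowest that permutation of 6 libraries allows.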

Other observations

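Outside the 10 genes, 9 genes tested had an exact ERSE in their promoter window, and they did not move in 1 direction. *Dnajc3*, a J-domain cochaperone of BiP (log2 fold change -0.21), *Alg12*, a mannosyltransferase of N-glycan assembly (-0.37), *Syvn1*, the HRD1 ubiquitin ligase of ER-associated degradation (-0.21), and *Creld2* (-0.15) were lower. *Derl3* (0.54), an ER-associated degradation factor at 1.07 to 2.45 FPKM, and *Xlr3b* (0.31) were higher, and *Hnrnpa3* (-0.058), *Pan2* (0.052) and *Adcy3* (0.051) did not pass. That is 44.4% lower and 22.2% higher, where 22.3% and 20.1% of the 8193 tested genes with a window were. Of the 8 other tested genes with an ERSE-II, *Nucb1* (-0.17), *Dnajb11* (-0.10) and *Gm46430* (-0.24) were lower and *Rcl1* (0.24) was higher. These genes were named after the windows were searched. The pieces CCAAT and CCACG alone were in the windows of 3579 and 4329 tested genes, of which 23.6% and 22.2% were lower.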
